A study of Mus musculus with 2 samples.

Results

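The Rab genes of red cell progenitors were examined in single-cell RNA data of E14.5 fetal liver, from C57BL/6 mice. Members were the genes whose symbol is Rab followed by a number, with or without further letters and digits, and with 1 or more unique molecular identifier (UMI, the tag that marks a single captured RNA molecule) in the matrix. This gave 69 of the 17608 genes in the matrix. The rule works on names, and 57 of the 69 are Rab GTPases. The other 12 are genes named after a Rab: the Rab11 binding proteins Rab11fip1 to Rab11fip5, both subunits of the Rab3 GTPase-activating complex (Rab3gap1 and Rab3gap2), the exchange factors Rab3il1 and Rab3ip, the membrane protein Rab5if, and the noncoding RNAs Rab10os and Rab26os. They are described as partners, apart from the GTPases.

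The study set methods of isolating erythroid progenitors side by side. Progenitors already bound to become red cells pass from the burst-forming stage (BFU-E), whose cells give large colonies late in culture, to the colony-forming stage (CFU-E), whose cells give small colonies early. A hashed library held 4 isolations that carried different barcoded antibodies, named FACS BFU-E (233 cells), FACS CFU-E (167 cells), PE-low (208 cells) and PE-high (294 cells), where FACS is fluorescence-activated cell sorting and the PE names were taken as the fractions of the magnet method. A second library, stained with barcoded antibodies to CD117 and CD71 (CITE-seq), held 122 cells named CS BFUE, 195 named CS CFUE and 2136 with no name. The cells of both libraries are labelled as low in CD71, the transferrin receptor, and in CD24. The labels also describe growth for 10 days with dexamethasone at 100 uM or with methanol, but not whether the sequenced cells went through it. The sources used here do not state what PE and CS stand for, how cells were given their names, how many embryos were pooled, or whether the isolations share embryos.

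Rab proteins are small GTPases that sit on membranes and act as switches. An exchange factor loads a Rab with GTP, which lets it recruit effectors that move, tether and fuse vesicles, and a GTPase-activating protein turns it off again. Different Rabs mark different compartments: Rab5 the early endosome, Rab4 and Rab11 the routes by which endocytosed receptors return to the surface, Rab7 the late endosome, Rab1 and Rab2 the traffic between endoplasmic reticulum and Golgi, and Rab3, Rab8, Rab27 and Rab37 the delivery of vesicles and granules to the plasma membrane. In red cell precursors the best known cargo is the transferrin receptor, which carries iron into endosomes and recycles to the surface many times.

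Promoter sequence was looked at because the GATA factors of blood progenitors bind the letters AGATAA or TGATAA. RefSeq windows of the 250 bases before a transcript start, on build GRCm38.p6, were found for 56 of the 69 members, and 13 had none. Either motif, on either strand, was present in 6 of the 74 windows of members (8.11%), against 16.6% of all 32851 windows. The members with a match were Rab14, Rab43, Rab7, Rab32, Rab3b and Rab34. In Rab43 it was in 1 of 4 windows, and in Rab7 and Rab34 in 1 of 2 windows each. Those of Rab14, Rab7 and Rab32 are shown because these genes have different patterns in the results: Rab14 was higher in each earlier pool, Rab7 was nearly level, and Rab32 was highest in cells that held markers of other blood cells. They lie on the minus strand at chr2:35201121-35201370, chr6:88045271-88045520 and chr10:10558208-10558457 and are printed 5′ to 3′ along the gene. Capitals mark the match, which in Rab7 and Rab32 is the reverse complement.
Rab14: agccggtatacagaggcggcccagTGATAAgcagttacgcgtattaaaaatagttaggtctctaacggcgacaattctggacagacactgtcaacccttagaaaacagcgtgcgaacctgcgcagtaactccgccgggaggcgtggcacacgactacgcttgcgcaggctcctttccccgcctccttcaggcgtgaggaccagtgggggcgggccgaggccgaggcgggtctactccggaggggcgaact
Rab7: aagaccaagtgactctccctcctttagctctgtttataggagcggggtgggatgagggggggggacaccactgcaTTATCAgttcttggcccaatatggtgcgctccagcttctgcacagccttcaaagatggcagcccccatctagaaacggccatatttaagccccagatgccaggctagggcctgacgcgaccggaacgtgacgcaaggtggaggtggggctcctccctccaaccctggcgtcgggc
Rab32: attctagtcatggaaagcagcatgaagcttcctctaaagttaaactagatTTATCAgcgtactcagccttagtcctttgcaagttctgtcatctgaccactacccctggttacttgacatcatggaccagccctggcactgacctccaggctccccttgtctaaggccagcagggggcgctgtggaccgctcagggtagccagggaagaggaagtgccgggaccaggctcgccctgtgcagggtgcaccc
The matches begin at positions -226, -175 and -200 from the start site. They are matches of letters only and say nothing about binding.

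Every level below is in CPM, the UMIs of a gene per 1000000 UMIs of the pool, from the UMIs summed over its cells. Pools held between 2968491 and 11003022 UMIs, and the median cell of a pool between 23449 and 38664. No cell barcode was shared by both libraries. Each name is 1 pool of cells, and cells are not replicates, so no test was made. Intervals at 95% cover counting error only, not the spread between animals or isolations. Summed over a list of 12 early progenitor genes, the level was 2084, 1976 and 1738 CPM in FACS BFU-E, PE-low and CS BFUE, and 298, 524 and 427 CPM in FACS CFU-E, PE-high and CS CFUE. The order was the opposite for 12 late erythroid genes, with 924, 1026 and 661 CPM in the 3 earlier pools and 3163, 2846 and 2301 CPM in the 3 later ones. The earlier pools also held cells with markers of other cell types. Cells in which granulocyte, monocyte, mast cell, lymphoid, hepatocyte and endothelium markers made up 2 or more of each 10000 UMIs were 36.9% of FACS BFU-E, 30.3% of PE-low and 43.4% of CS BFUE, against 0.599%, 7.14% and 3.59% of FACS CFU-E, PE-high and CS CFUE. The granulocyte list had the largest sums, 1339, 723 and 633 CPM in the earlier pools and 6.42, 183 and 13.1 CPM in the later ones. It was followed by the monocyte list, with 244, 373 and 146 CPM against 3.85, 79.0 and 7.79 CPM. Of the granulocyte markers, 3 of 6 were at 0 in FACS CFU-E and in CS CFUE, Elane among them. The hepatocyte list went the other way in the CITE-seq library, with 33.0 CPM in CS BFUE and 154 CPM in CS CFUE. Cells that hold such markers are called marker-bearing cells below, and for many of the genes and lists the stage ratio without them is also given. Their median depth was 26398, 31678 and 22014 UMIs in FACS BFU-E, PE-low and CS BFUE, and that of the other cells 34307, 36263 and 25678 UMIs. No doublet caller was run, and the sources used here do not state whether doublets were removed. The part of doublets among the marker-bearing cells was not tested.

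The Rab GTPases together made up 1857 CPM in FACS BFU-E, 1889 CPM in PE-low and 1525 CPM in CS BFUE. They made up 1698 CPM in FACS CFU-E, 1727 CPM in PE-high and 1405 CPM in CS CFUE. The earlier pool of each pair was thus higher by 1.09-fold, 1.09-fold and 1.09-fold, with intervals of 1.07 to 1.12, 1.07 to 1.12 and 1.05 to 1.12. Without the marker-bearing cells the ratios were 1.09, 1.08 and 1.07. Both CITE-seq pools were below all 4 hashed pools, a difference between libraries that runs across stages, so stage ratios were taken only within a library. Where the pools of the stages are said not to overlap, pools of both libraries are set side by side. The difference between libraries enters those statements. A mean of 20 CPM over the 6 pools was reached by 26 of the 69 members, 23 GTPases and 3 partners, and by 5410 genes in all.

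The most abundant GTPase was Rab14, which moves cargo between endosomes and the Golgi and back to the surface. Its mean over the pools was 152 CPM. It was followed by Rab2a (134 CPM, Golgi to endoplasmic reticulum traffic), Rab5c (126 CPM, early endosome fusion), Rab10 (110 CPM, exocytosis) and Rab7 (103 CPM, late endosome to lysosome). In each pool a molecule is counted once at its 3' end, so these levels can be compared between genes without correction for length. Among the partners, Rab5if, a membrane protein named for binding Rab5, stood above every GTPase at 474 CPM. Next below Rab7 came Rab18 (91.5 CPM), Rab8a (87.0 CPM), Rab11b (78.2 CPM), Rab11a (69.9 CPM) and Rab4a (68.0 CPM). Neighbours in this order changed places between pools: Rab14 was above Rab5c in 5 pools, but FACS CFU-E held 151 CPM of Rab5c and 131 CPM of Rab14. Rab10os, at 40.0 CPM, overlaps Rab10 on chromosome 12. The sources used here do not state whether the counting used strand, and reads of this pair may not be told apart.

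**Figure D1:**
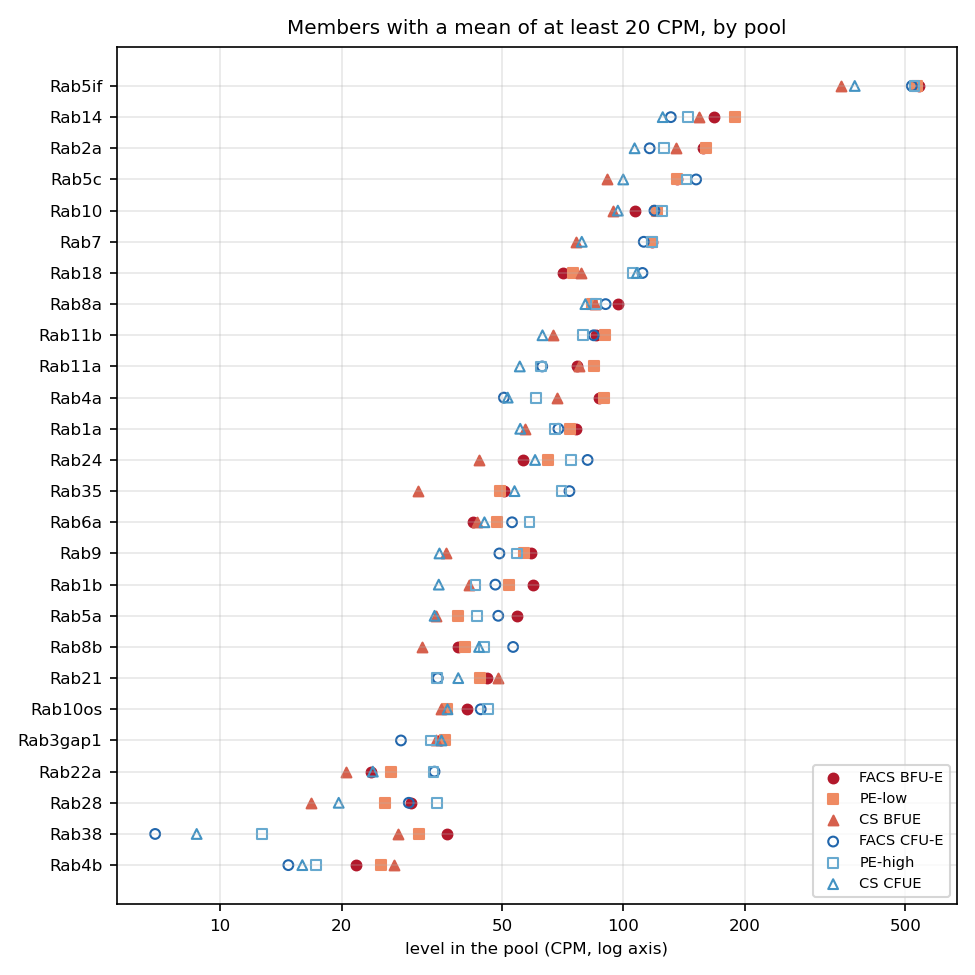
Levels of the 26 members with a mean of at least 20 CPM, on a log axis in CPM, 1 row per gene. Filled symbols are the 3 earlier pools and open symbols the 3 later ones; earlier and later symbols separate for Rab14, Rab18, Rab4a and Rab38, and mix for Rab5c and Rab7.

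At the other end, 43 members were below the filter, 11 of them under 1 CPM in all 6 pools. These included Rab25, the epithelial relative of Rab11, which was seen in 1 named pool at 0.273 CPM (PE-high), and Rab15, at 0.337 CPM in CS BFUE alone. Rab39b had no UMI in any named pool, and the limit that a count of 0 allows was between 0.273 and 1.01 CPM.

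For the question of endosome recycling against secretion, the GTPases were summed by role. The 9 recycling Rabs (Rab4a, Rab4b, Rab11a, Rab11b, Rab12, Rab14, Rab15, Rab25 and Rab35) summed to 499 CPM in FACS BFU-E and 427 CPM in FACS CFU-E. They summed to 539 CPM in PE-low and 445 CPM in PE-high, and to 441 CPM in CS BFUE and 374 CPM in CS CFUE. The earlier pool was higher in each pair, by 1.17-fold (1.11 to 1.23), 1.21-fold (1.16 to 1.27) and 1.18-fold (1.10 to 1.26). The 24 secretory Rabs summed to 745 and 696 CPM in FACS BFU-E and FACS CFU-E, 751 and 700 CPM in PE-low and PE-high, and 642 and 606 CPM in CS BFUE and CS CFUE. Their ratios were nearer 1, at 1.07 (1.03 to 1.11), 1.07 (1.04 to 1.11) and 1.06 (1.00 to 1.12). With the marker-bearing cells left out, the secretory ratios were 1.02 (0.974 to 1.06), 1.04 (1.00 to 1.09) and 0.992 (0.926 to 1.06), with the CS pair on the other side of 1, and the recycling ratios were 1.25 (1.18 to 1.32), 1.25 (1.20 to 1.31) and 1.23 (1.13 to 1.33). Recycling Rabs were 40.1% (39.1 to 41.1) of the recycling and secretory UMIs in FACS BFU-E, 41.8% (40.8 to 42.8) in PE-low and 40.7% (39.0 to 42.5) in CS BFUE. They were 38.0% (36.9 to 39.2) in FACS CFU-E, 38.9% (38.0 to 39.7) in PE-high and 38.2% (37.1 to 39.3) in CS CFUE. The intervals of the earlier and later pool were separate only for PE-low and PE-high; they overlapped for the FACS pair and for the CS pair. In the pools less their marker-bearing cells, the share was 42.9%, 43.5% and 43.5% in the 3 earlier pools, so the gap was wider in each pair.

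**Figure D2:**
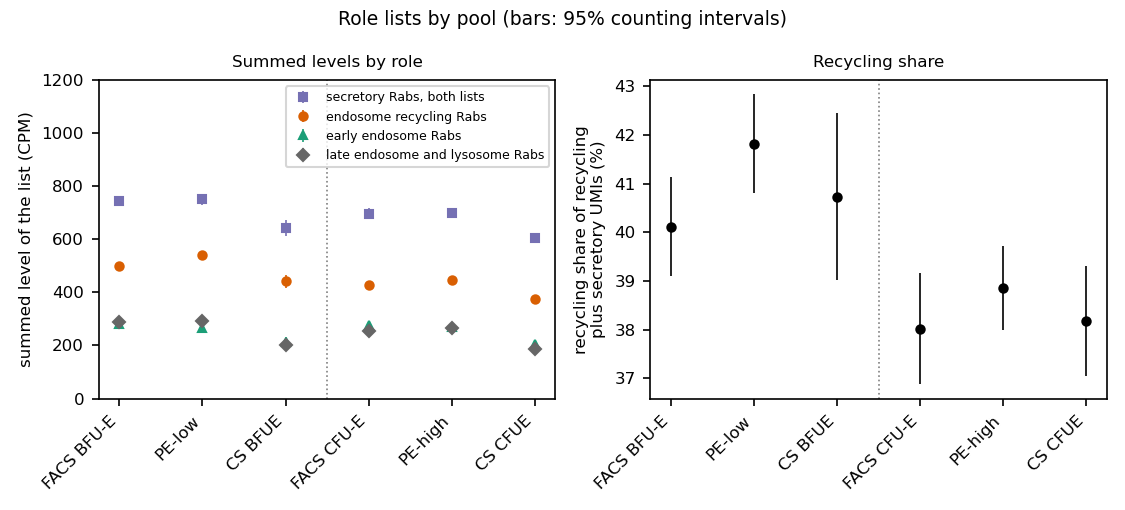
Left, summed levels in CPM of 4 role lists in the 6 pools; right, the share in percent of recycling UMIs among recycling plus secretory UMIs, on an axis that does not start at 0. Bars are 95% counting intervals; the 3 earlier pools, left of the dotted line, lie between 40.1% and 41.8% and the 3 later ones between 38.0% and 38.9%.

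Within secretion, the 2 arms differed. The 12 Rabs of endoplasmic reticulum and Golgi summed to nearly the same level in both pools of each named pair, with ratios of 1.01 (0.957 to 1.06), 1.02 (0.973 to 1.07) and 1.01 (0.938 to 1.08). The 12 Rabs of exocytosis were higher in the earlier pool by 1.17-fold (1.10 to 1.24), 1.16-fold (1.10 to 1.22) and 1.15-fold (1.05 to 1.25). Their excess lay in low genes. The 3 of the list above the filter, Rab8a, Rab8b and Rab10, summed to 243 CPM in FACS BFU-E and 263 CPM in FACS CFU-E, and their ratios were 0.923 (0.863 to 0.988), 0.959 (0.903 to 1.02) and 0.952 (0.866 to 1.04). The 9 below it, with Rab37, Rab27b, Rab44, Rab3d and Rab27a among them, summed to 74.3, 67.2 and 54.9 CPM in the earlier pools and 8.66, 14.0 and 10.1 CPM in the later ones. Without the marker-bearing cells the ratios of the 12 were 1.10 (1.03 to 1.18), 1.14 (1.08 to 1.22) and 1.08, and the last interval, 0.972 to 1.20, held 1. The 8 early endosome Rabs were level, at 1.00 (0.939 to 1.07), 0.992 (0.936 to 1.05) and 1.03 (0.939 to 1.13). The 11 late endosome and lysosome Rabs had ratios of 1.13 (1.06 to 1.21), 1.10 (1.04 to 1.16) and 1.07 (0.969 to 1.18). With the marker-bearing cells left out, the late list had 1.16 (1.08 to 1.25), 1.06 (0.999 to 1.13) and 1.14 (1.01 to 1.27), so that the PE interval reached 1 and the CS interval left it.

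Gene by gene, few members passed a 1.5-fold difference. Of the 26 above the filter, 2 were higher in FACS BFU-E (Rab38 and Rab4a) and 1 in FACS CFU-E (Rab18), where 10.1% and 8.54% of all genes above the filter passed in those directions. Between PE-low and PE-high, 1 was higher in PE-low (Rab38) and 0 in PE-high, where 7.28% and 5.84% of all genes passed. Between CS BFUE and CS CFUE, 2 were higher in CS BFUE (Rab38 and Rab4b) and 1 in CS CFUE (Rab35), against 9.41% and 10.2%. These shares are close to or under those of all genes, and no general stage pattern of the family is read from them. Rab38 and Rab4b were above 20 CPM in each earlier pool and below it in each later one. They reached the filter only through the earlier pools, so the filter favoured their direction in these counts. The median log2 ratio over the 26 was 0.087, 0.013 and -0.014 in the 3 pairs, beside -0.023, -0.0046 and -0.050 over all genes above the filter. Across both libraries, the pools of 1 stage did not overlap those of the other for 10 of the 26, and for 33.8% of all genes above the filter. The 10 were Rab14, Rab2a, Rab11a, Rab4a, Rab21, Rab38 and Rab4b, higher in the earlier pools, and Rab18, Rab35 and Rab8b, higher in the later ones. In the pools less their marker-bearing cells, 9 of the 26 did not overlap, all but Rab35, and 28.4% of all genes.

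**Figure D3:**
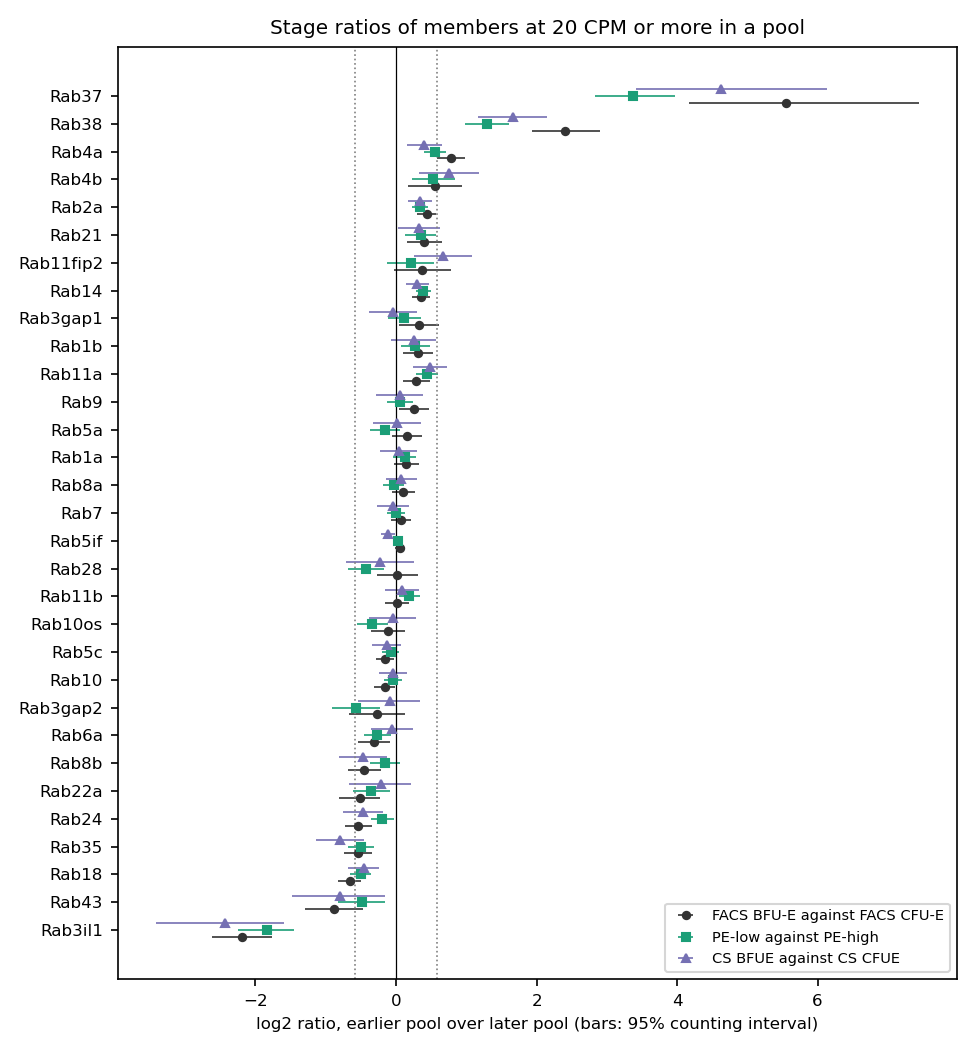
Log2 ratio of the earlier over the later pool for every member at 20 CPM or more in a pool, with 95% counting intervals; symbols are the 3 stage pairs and dotted lines mark 1.5-fold. Rab37 and Rab38 lie far to the right, Rab3il1 far to the left, and most members lie between the dotted lines.

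Among the recycling Rabs above the filter, Rab4a and Rab4b gave the largest ratios toward the earlier stage in the FACS and PE pairs. In the CS pair Rab4b did, and Rab4a was below Rab11a. Rab4a (chr8:123805846-123835291), which drives the fast return of receptors from early endosomes, was at 87.1 CPM in FACS BFU-E, 89.5 CPM in PE-low and 68.4 CPM in CS BFUE. It was at 50.5 CPM in FACS CFU-E, 60.8 CPM in PE-high and 51.7 CPM in CS CFUE. All 3 earlier pools were above all 3 later ones, by 1.72-fold (1.5 to 1.98), 1.47-fold (1.32 to 1.64) and 1.32-fold (1.11 to 1.57) within the pairs. The gene was low in the marker-bearing cells: in FACS BFU-E these held 32.5 CPM and the remaining cells 113 CPM, in PE-low 21.3 and 115 CPM, and in CS BFUE 25.2 and 97.3 CPM. Without those cells the ratios were 2.24 (1.94 to 2.57), 1.84 (1.65 to 2.06) and 1.84 (1.53 to 2.21), past 1.5-fold in each pair. Its relative Rab4b was at 21.7, 25.0 and 26.9 CPM in FACS BFU-E, PE-low and CS BFUE and at 14.8, 17.3 and 16.0 CPM in FACS CFU-E, PE-high and CS CFUE. The ratios of Rab4b were 1.47 (1.13 to 1.92), 1.45 (1.17 to 1.79) and 1.69 (1.25 to 2.26). Unlike Rab4a it was not low in the marker-bearing cells, which held 39.0 CPM in PE-low against 19.8 CPM in the rest, and without them the ratios were 1.43 (1.07 to 1.91), 1.25 (0.964 to 1.60) and 1.58 (1.09 to 2.25). Rab4a held between 71.7% and 80.1% of the Rab4 UMIs in the 6 whole pools, with no common direction between the stages. Without the marker-bearing cells it was the larger in each earlier pool, at 84.3%, 85.3% and 79.4% against 77.4%, 79.7% and 76.7%.

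Rab14 was at 168, 189 and 154 CPM in FACS BFU-E, PE-low and CS BFUE. It was at 131, 144 and 125 CPM in FACS CFU-E, PE-high and CS CFUE, lower in each pair and with no overlap of the stages. The ratios were 1.28 (1.17 to 1.40), 1.31 (1.21 to 1.41) and 1.23 (1.10 to 1.38). Rab14 was not lower in the marker-bearing cells than in the rest of the earlier pools, with 173 and 165 CPM in FACS BFU-E, 208 and 181 CPM in PE-low, and 154 and 154 CPM in CS BFUE. Its ratios without them were 1.25, 1.27 and 1.24. Rab11a, the Rab of the slower route through the recycling endosome, was at 76.9, 84.6 and 77.5 CPM in the earlier pools and 62.9, 62.4 and 55.3 CPM in the later ones. Its ratios were 1.22 (1.07 to 1.39), 1.35 (1.21 to 1.51) and 1.40 (1.19 to 1.65). Rab11b, its close relative, had 1.01 (0.899 to 1.14), 1.14 (1.02 to 1.26) and 1.06 (0.897 to 1.26), so only the PE interval lay above 1, and that one reached 1 without the marker-bearing cells (1.00 to 1.26). The Rab11a share of both genes' UMIs was 47.4%, 48.4% and 53.6% in FACS BFU-E, PE-low and CS BFUE, and 42.7%, 44.0% and 46.8% in FACS CFU-E, PE-high and CS CFUE. It was the larger at the earlier stage in each pair, and the intervals overlapped in each pair.

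Rab35, which acts in recycling at the plasma membrane, ran against its list. It was at 50.6, 49.5 and 31.0 CPM in FACS BFU-E, PE-low and CS BFUE and at 73.5, 70.3 and 53.7 CPM in FACS CFU-E, PE-high and CS CFUE. The later pool was higher by 1.45-fold (1.26 to 1.67), 1.42-fold (1.25 to 1.61) and 1.73-fold (1.38 to 2.20). Recycling Rabs thus did not move as a block, and the higher sum at the earlier stage lay mostly with Rab14, Rab4a, Rab11a and Rab4b.

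The early endosome genes were flatter. Rab5c was at 136, 136 and 91.0 CPM in FACS BFU-E, PE-low and CS BFUE and at 151, 143 and 99.9 CPM in FACS CFU-E, PE-high and CS CFUE, slightly higher in each later pool. The ratios of the later over the earlier pool were 1.11 (1.02 to 1.22), 1.05 (0.973 to 1.14) and 1.10 (0.954 to 1.27). Rab5a had intervals that held 1 in all 3 stage pairs, and so had Rab5b, which was the least abundant of the family at a mean of 11.0 CPM. Rab5c held between 66.8% and 72.2% of the family's UMIs. Rab21, which takes part in the endocytosis of integrins, was higher in each earlier pool, by 1.32-fold (1.11 to 1.58), 1.28-fold (1.09 to 1.49) and 1.25-fold (1.02 to 1.54). It was higher in the marker-bearing cells, with 55.4 CPM there and 41.2 CPM in the rest of FACS BFU-E, and without them the ratios were 1.19 (0.974 to 1.44), 1.18 (0.990 to 1.41) and 1.06 (0.802 to 1.37), all with intervals that held 1. Rab22a, an early endosome Rab, was higher in the later pool by 1.43-fold (1.17 to 1.76), 1.27-fold (1.07 to 1.53) and 1.16-fold, and the last interval, 0.865 to 1.58, held 1. When the marker-bearing cells were left out its later pool was higher by 1.27-fold and 1.22-fold in the FACS and PE pairs, and the CS ratio was 1.00 (0.696 to 1.41).

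In the secretory lists, opposite genes cancelled in the sum. Rab2a was at 157, 161 and 135 CPM in FACS BFU-E, PE-low and CS BFUE and at 116, 126 and 107 CPM in FACS CFU-E, PE-high and CS CFUE. The earlier pools were higher by 1.35-fold (1.23 to 1.49), 1.27-fold (1.17 to 1.38) and 1.27-fold (1.12 to 1.43), with no overlap of the stages. Rab2a was higher in the marker-bearing cells of each earlier pool, with 176 CPM there and 148 CPM in the rest of FACS BFU-E. Without them the difference was smaller, with 148, 149 and 127 CPM in the earlier pools and 117, 122 and 107 CPM in the later ones, still without overlap. Rab18, found on the endoplasmic reticulum and lipid droplets, was at 70.6, 74.8 and 78.5 CPM in the earlier pools and at 112, 106 and 108 CPM in the later ones. Here the later pool was higher, by 1.58-fold (1.41 to 1.77), 1.41-fold (1.27 to 1.57) and 1.38-fold (1.19 to 1.60), again with no overlap. Rab43, a Golgi Rab below the filter at a mean of 15.4 CPM, was higher in the later pool by 1.84-fold (1.39 to 2.45), 1.40-fold (1.12 to 1.78) and 1.74-fold (1.11 to 2.80). Rab1a and Rab1b, which act between endoplasmic reticulum and Golgi, had ratios of earlier over later pool between 1.03 and 1.24. Those of Rab1b excluded 1 in the FACS and PE pairs, and those of Rab1a in none. Both genes were higher in the marker-bearing cells of each earlier pool than in the rest, and without them the ratios were 1.00, 0.975 and 0.862 for Rab1a and 1.11, 1.08 and 0.977 for Rab1b, all with intervals that held 1. Rab10 was at 107, 121 and 94.0 CPM in the earlier pools and 119, 125 and 96.9 CPM in the later ones, which differ by at most 1.12-fold.

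Rab8a and Rab8b, which deliver vesicles to the plasma membrane, went different ways. Rab8a had ratios of 1.07 (0.961 to 1.20), 0.975 (0.879 to 1.08) and 1.05 (0.906 to 1.22). Rab8b was higher in the later pool by 1.37-fold (1.17 to 1.61), 1.11-fold (0.962 to 1.29) and 1.39-fold (1.10 to 1.76). The Rab8a share of the pair was 71.4%, 67.3% and 72.8% in FACS BFU-E, PE-low and CS BFUE, and 62.9%, 65.4% and 64.7% in FACS CFU-E, PE-high and CS CFUE. The intervals of the earlier and later pool overlapped in the PE and CS pairs. Without the marker-bearing cells the order turned in the PE pair, with 64.8% in PE-low and 65.3% in PE-high. It held in the FACS pair, at 71.6% and 62.8%, and in the CS pair, at 72.8% and 64.5%.

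Rab38 and Rab37 were low genes that differed between the stages with and without the marker-bearing cells. Rab38 (chr7:88430273-88491572), known from lysosome-related organelles such as melanosomes, was at 36.5 CPM in FACS BFU-E, 31.2 CPM in PE-low and 27.6 CPM in CS BFUE. It was at 6.90 CPM in FACS CFU-E, 12.7 CPM in PE-high and 8.75 CPM in CS CFUE. The earlier pool was higher by 5.29-fold (3.82 to 7.48), 2.45-fold (1.98 to 3.05) and 3.16-fold (2.25 to 4.45), and past 1.5-fold in all 3 pairs, as were 6.25% of all genes above the filter in this direction. No member above the filter was past it in all 3 pairs toward the later stage, where 5.08% of all genes were. Rab38 reached the filter only through its earlier pools, so its place in this count was favoured by the filter. With the marker-bearing cells left out, the ratios were 5.75, 2.90 and 3.56. Rab37 (chr11:115091331-115162773), a Rab of secretory granules, was at 30.1, 29.2 and 20.2 CPM in FACS BFU-E, PE-low and CS BFUE. In FACS CFU-E, PE-high and CS CFUE it was at 0.642, 2.82 and 0.820 CPM. It did not reach the filter, and its ratios were 46.9 (18.1 to 174), 10.4 (7.09 to 15.7) and 24.7 (10.7 to 69.8). Rab37 was not a gene of the other cells alone: marker-bearing cells held 25.4 CPM of it in FACS BFU-E, and the remaining cells 32.4 CPM. In the pools less their marker-bearing cells, its ratios were 50.3, 21.0 and 32.5. FACS BFU-E held 6 cells with megakaryocyte markers and without those of the other cell types. In these, Rab37 was at 80.3 CPM and Rab38 at 74.1 CPM.

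For 5 other low Rabs that were higher in the earlier pools, most UMIs of FACS BFU-E sat in the marker-bearing cells. In FACS BFU-E these cells held 32.5% of all UMIs. They held 96.0% of the 100 UMIs of Rab44, a large atypical Rab of blood cells, 93.8% of the 48 of Rab31, which acts between the Golgi and endosomes, and 79.7% of the 69 of Rab27a, which docks granules in leukocytes. They also held 56.8% of the UMIs of Rab32, the closest relative of Rab38, and 54.2% of those of Rab3d, a granule Rab of secretory cells. The same cells of PE-low, with 27.2% of its UMIs, held 83.7% of Rab44, 70.6% of Rab31, 85.2% of Rab27a and 79.2% of Rab32. Rab44 was at 40.0 CPM in the FACS BFU-E marker-bearing cells and at 0.804 CPM in the rest, and 48 of the 233 cells of the pool had a UMI of it. It had no UMI in FACS CFU-E or in CS CFUE, and set against the level that 3 UMIs per pool would give, FACS BFU-E was at least 28.2-fold and CS BFUE at least 13.1-fold higher. For 3 of these genes the other cells held UMIs in all 6 pools. There Rab32 was higher in the earlier pool by 25.6-fold (6.65 to 218), 3.90-fold (1.92 to 8.30) and 5.54-fold (1.51 to 22.1), beside 40.1-fold, 5.82-fold and 9.86-fold in the whole pools. For Rab3d the ratios were 6.74 (2.56 to 22.4), 2.74 (1.40 to 5.47) and 2.20 (0.579 to 7.31), beside 9.97, 3.78 and 4.38. Rab27a kept few UMIs, and was higher by 8.74-fold (2.01 to 79.2), 1.62-fold (0.556 to 4.57) and 7.92-fold (1.69 to 48.9). Rab27b, which serves the dense granules of platelets, differed from Rab27a. The marker-bearing cells held 25.0% of its 48 UMIs in FACS BFU-E. In the 6 cells with megakaryocyte markers that were not marker-bearing it reached 61.7 CPM, beside 6.51 CPM in the whole pool. In the 9 such cells of PE-low it was at 82.3 CPM, beside 8.75 CPM in the whole pool. Rab27b was higher in the earlier pool by 4.06-fold (2.03 to 8.99), 8.02-fold (4.28 to 16.4) and 8.94-fold (3.99 to 22.6), and without the marker-bearing cells by 4.50-fold, 9.13-fold and 11.9-fold. All of these ratios still include the megakaryocyte-marker cells in which Rab27b was high. The part of the marker-bearing cells in the pool differences was not tested beyond leaving them out.

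**Figure D4:**
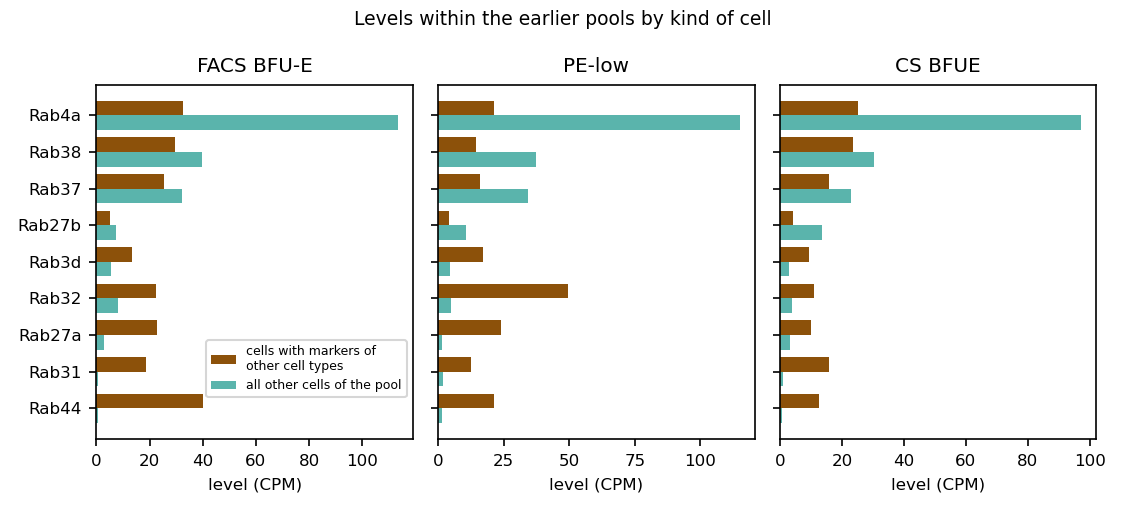
Levels in CPM of 9 members in the 3 earlier pools, split into cells that hold markers of other cell types (brown) and all other cells of the pool (green); the axes differ slightly in range. Rab44, Rab31, Rab27a, Rab32 and Rab3d are higher in the brown bars, and Rab4a, Rab38, Rab37 and Rab27b in the green ones.

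In the late endosome and lysosome list, Rab7 was at 118, 118 and 76.5 CPM in FACS BFU-E, PE-low and CS BFUE and at 112, 118 and 78.8 CPM in FACS CFU-E, PE-high and CS CFUE. It was level within each pair, with ratios of 1.05 (0.949 to 1.16), 1.00 (0.917 to 1.09) and 0.971 (0.827 to 1.13). Rab24, an atypical Rab linked to autophagy, was higher in the later pool by 1.45-fold (1.27 to 1.65), 1.14-fold (1.02 to 1.28) and 1.38-fold (1.13 to 1.69), and without the marker-bearing cells by 1.37-fold, 1.14-fold and 1.22-fold, where the CS interval, 0.970 to 1.56, held 1. Rab9, which returns receptors from late endosomes to the Golgi, was higher in FACS BFU-E by 1.19-fold (1.03 to 1.39), and its intervals held 1 in the other pairs.

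Of the partners, Rab3il1 (chr19:10001669-10038380), an exchange factor related to Rabin8, had the largest difference toward the later stage. It was at 8.00, 8.89 and 4.04 CPM in FACS BFU-E, PE-low and CS BFUE and at 36.4, 31.9 and 21.9 CPM in FACS CFU-E, PE-high and CS CFUE. The later pools were higher by 4.55-fold (3.41 to 6.17), 3.59-fold (2.74 to 4.77) and 5.41-fold (3.01 to 10.7), with no overlap. In FACS BFU-E 64.4% of its 59 UMIs were in the marker-bearing cells, and without those cells the ratios were 8.66, 5.74 and 18.6, the last from the few UMIs left in CS BFUE (interval 5.05 to 155). Its mean of 18.5 CPM kept it below the filter. Rab5if was within 1.08-fold in each pair. Rab11fip2, which links Rab11 to a myosin motor, was at 17.9, 18.4 and 27.6 CPM in the earlier pools and 13.8, 15.9 and 17.4 CPM in the later ones. Its interval excluded 1 in the CS pair alone, at 1.59-fold (1.19 to 2.12). In CS BFUE the marker-bearing cells held 54.9% of its UMIs, and without them that ratio was 1.22 (0.820 to 1.78). Rab3gap2 was higher in PE-high than in PE-low by 1.48-fold (1.17 to 1.88), and its intervals held 1 in the other pairs.

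The isolations were also compared at a given stage. Between PE-low and FACS BFU-E, 0 of 26 members passed 1.5-fold in either direction, where 0.536% and 0.314% of all genes passed. The largest member difference above the filter was Rab5a, with 39.0 CPM in PE-low and 54.5 CPM in FACS BFU-E, 1.40-fold higher (1.20 to 1.64) in the latter. Below the filter, Rab44 was 1.96-fold (1.38 to 2.82) higher in FACS BFU-E. Without the marker-bearing cells this turned to 1.93-fold higher in PE-low, on few UMIs. Between PE-high and FACS CFU-E, 1 member was higher in PE-high (Rab38, 1.84-fold, 1.30 to 2.66) and 0 in FACS CFU-E, against 2.14% and 0.129% of all genes. No pattern of the family is read from these counts. Below the filter, PE-high over FACS CFU-E was at 2.82 and 0.642 CPM for Rab37, 4.39-fold higher (1.55 to 17.1), and at 2.91 and 0.321 CPM for Rab32, 9.06-fold higher (2.31 to 78.0). With the marker-bearing cells left out, these were 2.52-fold (0.823 to 10.3) and 3.86-fold (0.874 to 35.2). Rab4a was 1.20-fold (1.05 to 1.38) higher in PE-high. The early progenitor list was also higher in PE-high than in FACS CFU-E, as given above.

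The 2136 cells of the CITE-seq library with no name were used to follow the levels without the pools. They were ranked by a stage score, the UMIs of the 12 late genes divided by those of the 24 early and late genes, and split into 5 bins of 427 or 428 cells. No member is in the score. The score is continuous, and 524 cells lay within 0.02 of the border between the highest bins, so the bins are ranges and not stages. Of the lowest bin, 40.7% of the cells held markers of other cell types, against at most 1.17% of the others. Between the lowest and the highest bin, 8 of the 26 members were past 1.5-fold in the direction of the lowest and 0 in that of the highest, where 21.9% and 7.78% of all genes passed. The 8 were Rab38, Rab4a, Rab14, Rab2a, Rab1b, Rab4b, Rab21 and Rab3gap1. Without the marker-bearing cells 5 passed, and because the share of all genes is not given for that setting, no pattern is read from the 5. Under that setting Rab1b, Rab21 and Rab4b had ratios of 1.39, 1.47 and 1.18, beside 1.77, 1.58 and 1.63 with all cells.

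Rab4a was at 59.0, 63.5, 44.6, 28.7 and 14.0 CPM from the lowest to the highest bin. It had like levels in the lowest pair of bins and then declined, to a ratio of 4.21 (3.53 to 5.04) between the ends, or 5.57 without the marker-bearing cells. This is a larger range than between any of the named pools. Rab14 was at 165, 138, 122, 100.0 and 84.9 CPM, lower in each bin than in the one before, and so was Rab2a, at 137, 110, 98.1, 86.9 and 70.8 CPM. Rab38 was at 17.8, 13.7, 5.44, 2.80 and 1.52 CPM. Rab3il1 had the opposite course, with 8.97, 12.3, 25.1, 39.9 and 56.2 CPM, and Rab43 was at 11.8, 11.1, 15.0, 19.0 and 22.2 CPM. Members that differed between the named pools did not all follow the score. Rab11a had 61.2 CPM in the lowest and 61.1 CPM in the highest bin, with 51.0 CPM in the second. Rab18 was highest in the second bin, at 104 CPM, with 84.9 and 89.8 CPM at the ends. Rab35 had 41.9 CPM in the lowest bin and between 50.7 and 52.7 CPM in the others. Without the marker-bearing cells the ratio of the lowest over the highest bin was 1.06 for Rab18 and 0.947 for Rab35. With all cells these ratios were 0.945 and 0.827. The recycling share of recycling plus secretory UMIs was 39.4%, 39.2%, 38.0%, 36.9% and 36.1%, lower toward the highest bin as in the later pools. The recycling sum was 433, 398, 358, 333 and 297 CPM. The endoplasmic reticulum and Golgi sum, nearly level between the named pools, fell here too, at 402, 375, 359, 337 and 313 CPM. The exocytosis sum was 264, 242, 227, 231 and 213 CPM.

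**Figure D5:**
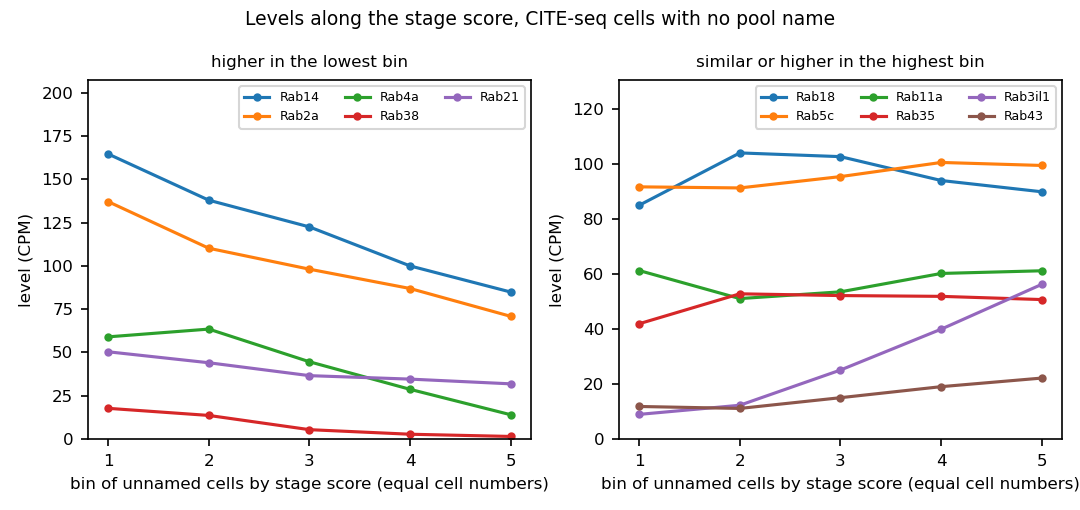
Levels in CPM of 11 members in the 5 bins of the unnamed CITE-seq cells, from the lowest stage score (1) to the highest (5). Rab14, Rab2a, Rab38 and Rab21 decline along the bins and Rab4a does so from the second on, Rab3il1 and Rab43 are highest in the last bin, and Rab11a, Rab18, Rab5c and Rab35 have similar levels at the 2 ends.

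Genes that serve the Rabs were counted in lists chosen by their roles. In the transferrin receptor cycle 27 of 31 genes were above the filter, and 0 were past 1.5-fold toward FACS BFU-E and 8 toward FACS CFU-E. The counts were 0 and 6 for PE-low and PE-high, and 1 and 9 for CS BFUE and CS CFUE. Of all genes above the filter 10.1% and 8.54% passed in the 2 directions of the FACS pair, 7.28% and 5.84% in the PE pair, and 9.41% and 10.2% in the CS pair, and the counts of every list here stand beside these shares. Tfrc, the transferrin receptor gene, was at 82.0 CPM in FACS BFU-E, 107 CPM in PE-low and 58.6 CPM in CS BFUE, and at 326, 303 and 276 CPM in FACS CFU-E, PE-high and CS CFUE. The later pools were higher by 3.97-fold (3.62 to 4.35), 2.82-fold (2.61 to 3.06) and 4.71-fold (4.03 to 5.53), and by 3.15-fold, 2.38-fold and 3.26-fold without the marker-bearing cells. Its direction was thus the opposite of that of the summed recycling Rabs, and of Rab4a, Rab11a and Rab14, in each pair, and the same as that of Rab35. The cells were selected for low CD71 protein per the labels, and the sources used here do not state whether CD71 entered the CITE-seq names. The next largest in the FACS pair were Ap2a1, a subunit of the endocytic clathrin adaptor, at 27.4 and 74.0 CPM (2.70-fold higher in FACS CFU-E), Picalm, a clathrin assembly protein, at 53.4 and 111 CPM (2.07-fold), and Tfr2, the second transferrin receptor, at 25.2 and 48.1 CPM (1.91-fold). In the pools less their marker-bearing cells, these were 2.53-fold, 1.88-fold and 1.42-fold, so that Tfr2 no longer passed 1.5-fold.

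Of the 38 GTPase-activating proteins 8 were above the filter, and 1, Evi5, was past 1.5-fold in the FACS pair. Evi5, which binds Rab11, was at 6.92, 14.7 and 7.07 CPM in FACS BFU-E, PE-low and CS BFUE and at 36.1, 33.9 and 26.8 CPM in FACS CFU-E, PE-high and CS CFUE, higher in each later pool by 5.22-fold (3.84 to 7.22), 2.31-fold (1.85 to 2.90) and 3.79-fold (2.41 to 6.25). Without the marker-bearing cells the Evi5 ratios were 11.3, 3.19 and 6.03. Evi5 was below the level of the filter in each earlier pool and above it in each later one. It reached the filter only through the later pools, so the filter favoured its direction in this count. Of 16 exchange factors above the filter, 2 passed toward FACS BFU-E and 1 toward FACS CFU-E. The counts were 2 and 1 for PE-low and PE-high, and 3 and 2 for CS BFUE and CS CFUE. Madd, the exchange factor of Rab3 and Rab27, was at 30.2 CPM in FACS BFU-E and 11.9 CPM in FACS CFU-E (2.55-fold, 1.95 to 3.36), and was higher in the earlier pool of the other pairs by 2.24-fold and 2.28-fold. The TRAPP complex, which activates Rabs of the Golgi, had members on both sides: Trappc6a was 1.99-fold higher in FACS BFU-E and Trappc10 1.80-fold higher in FACS CFU-E. Of 12 effectors above the filter, Appl1, which binds Rab5 on endosomes, was higher in FACS BFU-E by 3.81-fold (2.77 to 5.35) and Rilpl2 by 1.82-fold, and Ehbp1l1, an effector of Rab8, was higher in FACS CFU-E by 1.79-fold. Effectors past 1.5-fold were 1 toward PE-low and 1 toward PE-high, and 2 toward CS BFUE and 1 toward CS CFUE. In the escort and prenylation list, 1 of 4 genes above the filter passed in the FACS pair, and 0 passed in the PE and CS pairs. It was Rabggtb, the catalytic subunit that attaches the lipid anchors of Rabs, at 80.0 CPM in FACS BFU-E and 131 CPM in FACS CFU-E (1.64-fold, 1.48 to 1.83). With the marker-bearing cells left out, Rabggtb was higher in FACS CFU-E by 1.43-fold and Rilpl2 in FACS BFU-E by 1.45-fold, both then short of 1.5-fold. None of the 17 coat protein genes of the secretory pathway above the filter passed 1.5-fold in any of the 3 stage pairs.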

How the data were processed

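For 3357 cells and 17608 genes of both libraries, the matrix that the authors deposited holds the natural log of 1 plus the UMI count per 10000 of a cell. The submitters' processing notes name Cell Ranger 4.0.0, Scanpy and mm10, and per the labels' protocols the kit was 10x 3' version 3. Filters on cells or genes and the treatment of doublets were not stated, and no doublet caller was run. The UMI counts were obtained by undoing the log and dividing by the smallest nonzero value of each cell, and all of 16419767 values (100%) came out whole within 0.02. Pool names came from the authors' deposited cell table. Symbols and positions came from RefSeq tables (GRCm38.p6), in which 17592 IDs had a symbol.

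UMIs were summed per pool and scaled to CPM. Genes with a mean of at least 20 CPM over the 6 pools were compared, and a ratio past 1.5-fold was counted as different. The 95% intervals are exact Poisson for levels, exact conditional binomial for ratios and Clopper-Pearson for shares. With 1 pool per name there was no test. The code for the ratios, their intervals and the calls was run on simulated pool counts. These held Poisson error only, which the intervals assume, so the run cannot speak to spread between cells, isolations or animals. The recovery was checked only by whether its values came out whole.

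Genes were named by rule: members past 1.5-fold in the FACS or PE stage pair or between the methods, the 6 most abundant, the Rab4, Rab5, Rab11 and Rab27 families, members below the filter with 20 CPM in a pool, up to 4 genes of each other list by the size of the FACS ratio, and Tfrc. Other members named were chosen after their values were seen. The members and lists were chosen with earlier results of these data known. Python 3.11.15, NumPy 2.4.6, pandas 2.3.3, SciPy 1.17.1 and matplotlib 3.10.9 were used.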

Additional observations from a re-analysis of the deposited data

How the results depend on the processing

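With 1 pool per name, leaving out a replicate could not be done. No paired analysis was possible because each name is 1 pool and the result comes from no test. Of 289 recomputed values for counts, sums and shares, 215 kept their value within the stated margins. Of 890 for single genes, 777 did, 110 moved and 3 reversed, and 9 ratios were not taken because a pool held no UMI. The other role lists without the marker cells, and the Rab GTPases alone, were added after seeing the data. Median of ratios scaling and counting the Rab GTPases alone moved no count by over 1.5 times.

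Counts of members past 1.5-fold moved with the filter. Apart from the settings that leave out cells of the named pools, the shares of all genes under these settings are not given. No pattern of the family is read from the counts. With no filter, any member with 1 or more UMI in either pool entered, so ratios from very few UMIs are counted. With no filter on low values, 22 passed toward FACS BFU-E and 7 toward FACS CFU-E, 23 toward PE-low and 2 toward PE-high, and 23 toward CS BFUE and 7 toward CS CFUE. Between the methods, 6 were then higher in PE-low and 5 in FACS BFU-E, and 16 in PE-high and 4 in FACS CFU-E. When 50 CPM and a UMI in 10% of the cells were required in a pool of the pair, 1 passed toward FACS BFU-E, and 0 passed in PE-low over PE-high, in CS BFUE over CS CFUE and in PE-high over FACS CFU-E. At 2-fold, 1 passed toward FACS BFU-E and 0 toward FACS CFU-E, 1 in CS BFUE and 0 in CS CFUE, and 0 in PE-high over FACS CFU-E. With the mean of the cells' own CPM, 3 were higher in FACS CFU-E. Thinned to 6000 UMIs per cell, which leaves fewer counts by construction, 4 passed toward FACS CFU-E, 2 toward PE-low and 1 toward PE-high, 3 in CS CFUE, and 3 in PE-high over FACS CFU-E. Without cells holding markers of other cell types 2 were higher in PE-low, and 2 when cells with megakaryocyte markers were left out too, which also gave 2 in CS CFUE. Of all genes above the filter, 6.80% and 6.58% were higher in PE-low under these 2 settings. In CS CFUE 8.08% were higher under the latter. Along the stage score, 5 members were higher in the lowest group without the marker cells, and 5 with 3 groups of cells in place of 5.

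The recycling share without the marker cells was 42.9%, 43.5% and 43.5% in FACS BFU-E, PE-low and CS BFUE, and without megakaryocyte marker cells as well 43.0%, 43.6% and 43.7%. Without Rab14 and the most abundant secretory Rab it was 36.1%, 37.3% and 36.1% in the earlier pools and 33.8%, 34.4% and 33.3% in FACS CFU-E, PE-high and CS CFUE, so the direction of each pair held. Thinned, PE-low had 40.7%. The summed recycling ratio in the FACS pair was 1.25 without the marker cells and 1.24 without megakaryocyte marker cells too. The secretory ratio came nearer 1: in the FACS pair 1.02 and 1.01 under these settings and 1.01 without the most abundant member. In the PE pair it was 1.03 without both kinds of cell (1.025) and 1.03 without the most abundant member (1.028). In the CS pair it was 0.992 and 0.985 without the cells, on the other side of 1. Without the marker cells the early endosome sum in the FACS pair was 0.938 and the sum of the endoplasmic reticulum and Golgi list in the CS pair 0.936.

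The Rab4a share of its pair of genes was 84.3% and 84.3% in FACS BFU-E, 85.3% and 85.3% in PE-low, and 79.4% and 80.1% in CS BFUE without the marker cells and without both kinds, and 72.1% in PE-high when thinned. Thinned shares of Rab5c were 69.6% in PE-high and 74.1% in CS CFUE, and those of Rab8a 75.0% in FACS BFU-E, 69.3% in PE-high and 67.9% in CS CFUE. The Rab27a share of Rab27 UMIs was 28.0% and 29.7% in FACS BFU-E, 12.9% and 16.7% in PE-low, and 20% and 20% in CS BFUE without the cells, since Rab27a UMIs lay mostly in them. Thinned, it was 28.0% in PE-low and 100% in FACS CFU-E, from few UMIs. The reversed ratios were Rab3d in CS BFUE over CS CFUE when thinned (0.959), and Rab44 in PE-low over FACS BFU-E without the marker cells (1.93) and without both kinds (2.28), both on few UMIs. Depth limits the members under about 5 CPM, whose intervals are wide.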
